A study of Mus musculus with 2 samples.

Results

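The 39 genes described here encode the proteins that license origins of DNA replication, unwind the double helix and copy it. They were taken as a fixed list of gene symbols, and every probe set whose platform annotation names exactly 1 of those symbols was used. All 39 genes had such a probe set, which gave 87 probe sets, and the 39 genes were part of 18194 genes with a probe set of their own. The samples were 2 Affymetrix expression arrays of total RNA from a single mouse embryonic stem (ES) cell line, ESSP9, genotype Del1.3MbWBS, with a 1.3 Mb deletion of the region that is lost in Williams-Beuren syndrome. Both arrays carry that deletion and form 1 group, and the labels call them biological replicates without saying whether they came from separate cultures. The cells grew with leukaemia inhibitory factor on feeder cells in 20% serum replacement, and since an undeleted line was not analysed here, no effect of the deletion is given. The labels do not say how many copies of the region were lost.

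Replication begins with licensing. The origin recognition complex, with Cdc6 and Cdt1, loads the ring-shaped MCM helicase onto DNA while the cell is in G1 phase, and geminin then blocks Cdt1 so that no origin is licensed again in the same cycle. The kinase Cdc7 with its activator Dbf4 starts the loaded helicase, which joins Cdc45 and the GINS complex, and the polymerases follow at the fork. Mouse ES cells divide fast and have a short G1 phase, and many of these genes are known targets of E2F transcription factors.

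What these genes share beyond the list was looked for in their promoters. RefSeq windows of the GRCm38.p6 build, which run from 250 bases before to 50 bases after the annotated start of transcription, were given for 32 of the 39 genes. Windows for Mcm4, Gmnn, Gins1, Gins2, Gins4, Prim2 and Pole were not used here. The letters searched were TTTCCCGC, TTTCGCGC, TTTGCCGC and TTTGGCGC, the textbook form of an E2F site, on both strands. A match describes the letters only and does not show that a factor binds. Of the 32 genes, 14 (43.75%) held at least 1 match, against 704 of 27025 genes with a window (2.6%). Among the genes called above background on these arrays, by the rule given below, 4.68% held a match. Of those whose windows lay in the same range of GC content as the listed genes, 38.7% to 74.7%, 4.81% did. That range kept 9352 of the 10019 genes above background with a window, so it is not a close match of GC content.

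The 14 genes were Mcm3, Mcm5, Mcm6, Mcm7, Orc1, Orc3, Cdc6, Cdt1, Gins3, Pola1, Pold1, Pold3, Pole2 and Lig1. They included 4 of the 5 helicase subunit genes that had a window, and these 4 were also the members with more than 1 match. Their promoter stretches are shown because they carry all of the repeated matches. Capitals mark the letters of a match on either strand, and each stretch is written in the direction of transcription.
The Mcm5 stretch, chr8:75109259-75109508 on the plus strand, covers the 250 bases before the start, and the Mcm6 stretch, chr1:128359706-128359955 on the minus strand, does the same.
The Mcm7 stretch, chr5:138171860-138172133 on the minus strand, ends 24 bases past the start. The Mcm3 stretch, chr1:20820267-20820296 on the minus strand, covers 30 bases, from base 17 to base 46 counted from the start. Both of its matches lie there.
Mcm5: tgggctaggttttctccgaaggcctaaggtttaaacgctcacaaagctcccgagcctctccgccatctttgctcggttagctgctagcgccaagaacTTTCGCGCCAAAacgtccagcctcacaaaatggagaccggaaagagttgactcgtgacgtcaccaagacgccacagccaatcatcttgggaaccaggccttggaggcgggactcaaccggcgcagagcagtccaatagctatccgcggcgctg
Mcm6: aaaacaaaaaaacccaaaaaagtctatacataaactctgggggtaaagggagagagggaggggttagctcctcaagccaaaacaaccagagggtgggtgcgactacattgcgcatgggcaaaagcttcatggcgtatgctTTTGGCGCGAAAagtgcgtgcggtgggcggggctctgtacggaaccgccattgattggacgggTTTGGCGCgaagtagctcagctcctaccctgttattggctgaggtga
Mcm7: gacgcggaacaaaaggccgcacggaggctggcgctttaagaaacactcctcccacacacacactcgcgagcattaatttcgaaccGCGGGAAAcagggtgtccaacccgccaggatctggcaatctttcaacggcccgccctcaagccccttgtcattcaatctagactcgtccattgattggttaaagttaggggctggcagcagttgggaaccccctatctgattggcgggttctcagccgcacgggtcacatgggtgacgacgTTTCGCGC
Mcm3: gtgGCGGGAAAacttgggaagtTTTGGCGC

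In Mcm5 the 2 matches overlap, since the letters read as a match on both strands, and form 1 site. Mcm6 held 3 matches in 2 places, and Mcm3 and Mcm7 held 2 separate matches each. Over all members there were 19 matches, of which 12 had their centre within 100 bases of the start and 11 lay before it. Most of each window lies before the start, and the positions of matches over all genes were not computed. The plot of match positions shows the members' matches on both sides of the start.

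**Figure D1:**
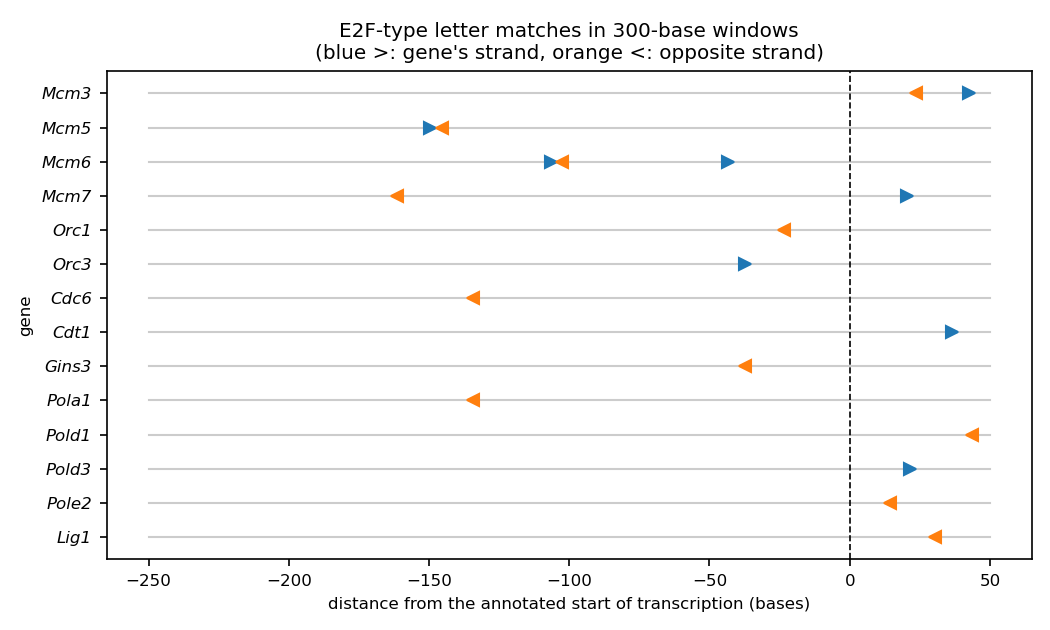
Positions of the E2F-type letter matches in the 300-base promoter windows of the 14 replication genes that hold any, as distance in bases from the annotated start of transcription. Each grey line is the window and each arrow a match, pointing right on the gene's strand and left on the opposite strand; the paired arrows in Mcm5 and Mcm6 are overlapping matches.

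Other promoter letters, chosen after the values had been seen, set the members less apart. The CCAAT letters, searched on both strands, were in the windows of 20 of 32 members (62.5%), against 41.1% of all genes and 42.9% of genes above background. The GC box letters GGGCGG, searched on both strands, were in 25 of 32 (78.1%), against 38.2% of all genes and 68.3% of genes above background. Only 1 of the 19 E2F-type matches overlapped a CCAAT match, and none overlapped a GC box. The median GC content of the windows was 60.7% in the members and 60.7% in genes above background.

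**Figure D2:**
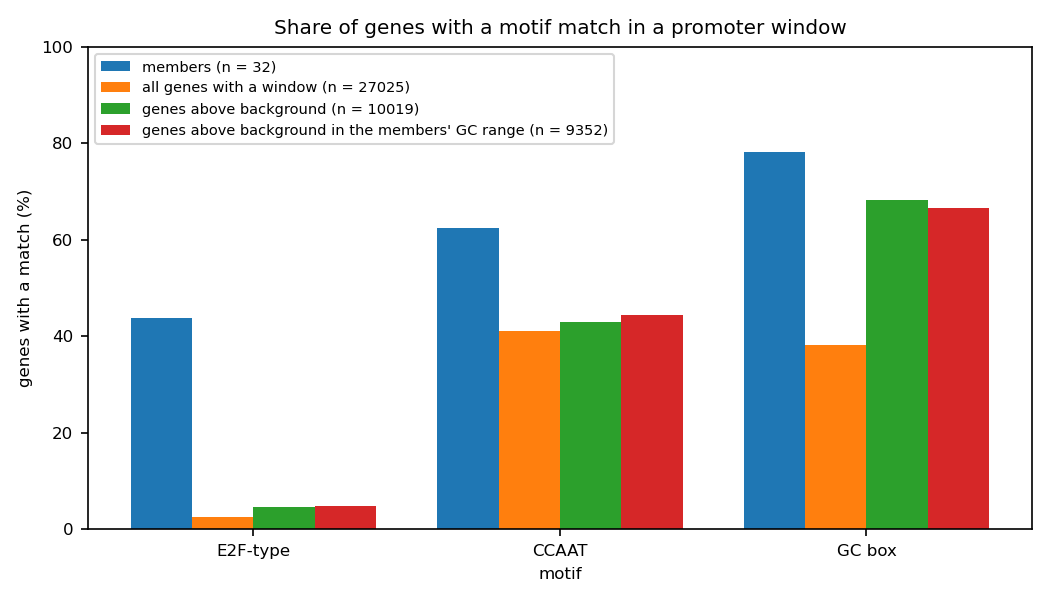
Share of genes (percent, axis from 0) with at least 1 match to each motif in a promoter window, for the 32 replication genes with a window, all 27025 genes, the 10019 genes above background and the 9352 of these in the members' GC range. The E2F-type bars differ most, at 43.75% in the members and 2.6% in all genes.

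A further set of sequences lies inside a member. The Mcm7 gene holds 3 microRNA genes on its own strand, Mir106b, Mir93 and Mir25, which are known to be processed from an intron of its transcript. The mature forms are shown because any transcription across Mcm7 crosses them, with the seed (bases 2 to 8) in capitals. They lie at chr5:138165787-138165807 for miR-106b-5p, chr5:138165574-138165596 for miR-93-5p and chr5:138165332-138165353 for miR-25-3p, all on the minus strand of GRCm38.p6 in RefSeq.
miR-106b-5p: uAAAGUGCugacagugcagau
miR-93-5p: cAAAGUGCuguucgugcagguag
miR-25-3p: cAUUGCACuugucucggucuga
The seed AAAGUGC is common to the first pair and occurs in 7 of 1679 mature mouse microRNAs in the table, among them miR-17-5p and miR-20a-5p. The miR-25-3p seed occurs in 6. Only 1 other member, Pold1, holds a microRNA gene, Mir7053. The arrays measured the host messenger RNA, and the microRNAs themselves were not measured.

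The measured values are log2 expression values from RMA, a standard way for the authors to turn probe intensities into 1 value for each probe set and array. The background was set by 39 olfactory receptor genes, for which no transcript is expected in ES cells. Above background means above their 95th percentile on each array and in the mean, where that threshold was 5.59. The probe set with the highest mean stood for a gene, and probes differ in how well they bind, so the order of these values does not give the order of transcript amounts. In each pair of values below, replicate 1 comes first. Every member was above background, 39 of 39, where 68.4% of all 18194 genes were. Under this rule a gene with more probe sets has more chances to pass. The 39 members had 87 probe sets, all 18194 genes had 34958, and the 39 olfactory receptor genes had 44. The members' means ran from 7.41 to 12.95, and the lowest of these values lay 1.82 log2 units above the threshold. The SD between replicates had a median of 0.035 and a maximum of 0.12 over the members (n = 2 arrays each).

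The RNA came from a culture with more than 1 cell type, which bears on each of these calls. All 15 ES cell markers were above background, with Pou5f1 at 12.65 and 12.62 and Nanog at 12.15 and 12.06. Fibroblasts commonly serve as feeder cells, and the 19 fibroblast markers with a probe set were all above background too, with means from 8.81 to 14.87. The summed log2 values of the fibroblast markers were 226.9 on replicate 1 and 227.2 on replicate 2, and those of the ES cell markers 163.0 and 162.8. The part of the feeder cells in the replication gene values was not tested. The labels do not say whether the feeder cells had been stopped from dividing, or removed before RNA extraction. In such bulk RNA, fewer cells of a type and less RNA per cell cannot be told apart. Of blood cell markers 3 of 5 were above background, Lyz2 at 9.32 and 9.34, Csf1r at 6.86 and 6.60, and Cd3e at 6.58 and 6.55. Ptprc, which encodes the pan-leukocyte antigen, was at 3.96 and 4.14, and Itgam at 3.87 and 3.98, both below the threshold.

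The MCM helicase is a ring of 6 related subunits that unwinds DNA ahead of the fork. Mcm2 was at 11.08 and 11.11, Mcm3 at 11.03 and 11.00, and Mcm4 at 11.56 and 11.49. Mcm5 was at 12.20 and 12.23, Mcm6 at 11.18 and 11.15, and Mcm7 at 12.94 and 12.96. All 6 were far above the threshold on both arrays, and the replicates of each lay within 0.068 log2 units, with 3 subunits higher on replicate 2 and 3 on replicate 1. For Mcm7 every probe set is of a type that may bind several transcripts, and the 4 of them had means from 10.89 to 12.95. The values given for Mcm2, Mcm3, Mcm4 and Mcm5 also come from probe sets of that type. Their brightest probe sets of the plain type had means of 10.20, 9.98, 11.37 and 10.27 in that order. Among all 39 members, the values of 17 come from a probe set that may bind several transcripts.

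The origin recognition complex marks the sites where the helicase is loaded. Orc1, the subunit whose amount is known to vary over the cell cycle, was at 9.09 and 9.11. Orc2 was at 9.28 and 9.18, Orc3 at 8.95 and 8.90, and Orc4 at 9.69 and 9.73. Orc5, at 10.09 and 10.05, and Orc6, at 9.82 and 9.93, had 1 probe set each. All 6 subunits were above background, and 3 were higher on each array.

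Both loaders and their inhibitor were above background. Cdc6, the ATPase that joins the origin recognition complex in G1, was at 8.85 and 8.90 on its only probe set. Cdt1, which brings the helicase to the origin, was at 11.89 and 11.84. Gmnn, which encodes geminin, the protein that binds and blocks Cdt1, was at 10.93 and 11.05, and its difference of 0.12 was the largest in favour of replicate 2 among the members. Transcripts of the licensing factor and of its inhibitor were thus both present in the same RNA, from which nothing follows about their timing within the cell cycle.

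Helicase activation needs Cdc45, the GINS complex and the kinase Cdc7. Cdc45 was at 8.58 and 8.49. Among the subunits of GINS, a clamp that holds Cdc45 to the helicase, Gins1 was at 9.86 and 9.87, Gins2 at 9.67 and 9.62, Gins3 at 7.36 and 7.45 and Gins4 at 10.13 and 10.18. Mcm10, a scaffold that acts as the helicase starts, was at 9.70 and 9.61. The value of Gins3 lay nearest to the threshold, and Gins3 was above it on both of its probe sets. The kinase gene Cdc7 was at 8.57 and 8.54, and Dbf4, which encodes the subunit that activates it, was at 10.91 and 10.93.

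At the fork, polymerase alpha with primase lays down the RNA-DNA primers. Its catalytic subunit gene Pola1 was at 9.04 and 8.97, and the accessory subunit gene Pola2 at 8.27 and 8.29. Prim1, which encodes the catalytic subunit of primase, was at 10.68 and 10.76, and Prim2, for the large subunit, at 8.80 and 8.91. The replicates of all 4 differed by at most 0.10.

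Polymerases delta and epsilon extend those primers, mainly on the lagging and the leading strand. Pold1, the catalytic subunit gene of delta, was at 9.61 and 9.67, Pold2 at 9.87 and 9.92, and Pold3 at 8.68 and 8.50. Pole, the catalytic subunit gene of epsilon, was at 8.91 and 8.90, and Pole2 at 9.93 and 9.98. Pold3 had the widest gap of any member, at -0.18 (replicate 2 minus replicate 1), and its other probe sets were also lower on replicate 2, by -0.11 and -0.068.

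The replication protein A trimer coats exposed single strands. Its subunit genes were at 12.34 and 12.31 for Rpa1, 10.64 and 10.60 for Rpa2, and 9.61 and 9.69 for Rpa3. Fen1, the nuclease that trims flaps between lagging-strand fragments, was at 11.04 and 11.00, and Lig1, the ligase that seals them, at 11.11 and 11.03. Ribonucleotide reductase, which makes the deoxynucleotides, had its large subunit gene Rrm1 at 10.66 and 10.58 and its small subunit gene Rrm2 at 12.19 and 12.17. These 7 genes were all above background on both arrays, and only Rpa3 was higher on replicate 2. The plot of values by array sets both replicates of every member beside the threshold.

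**Figure D3:**
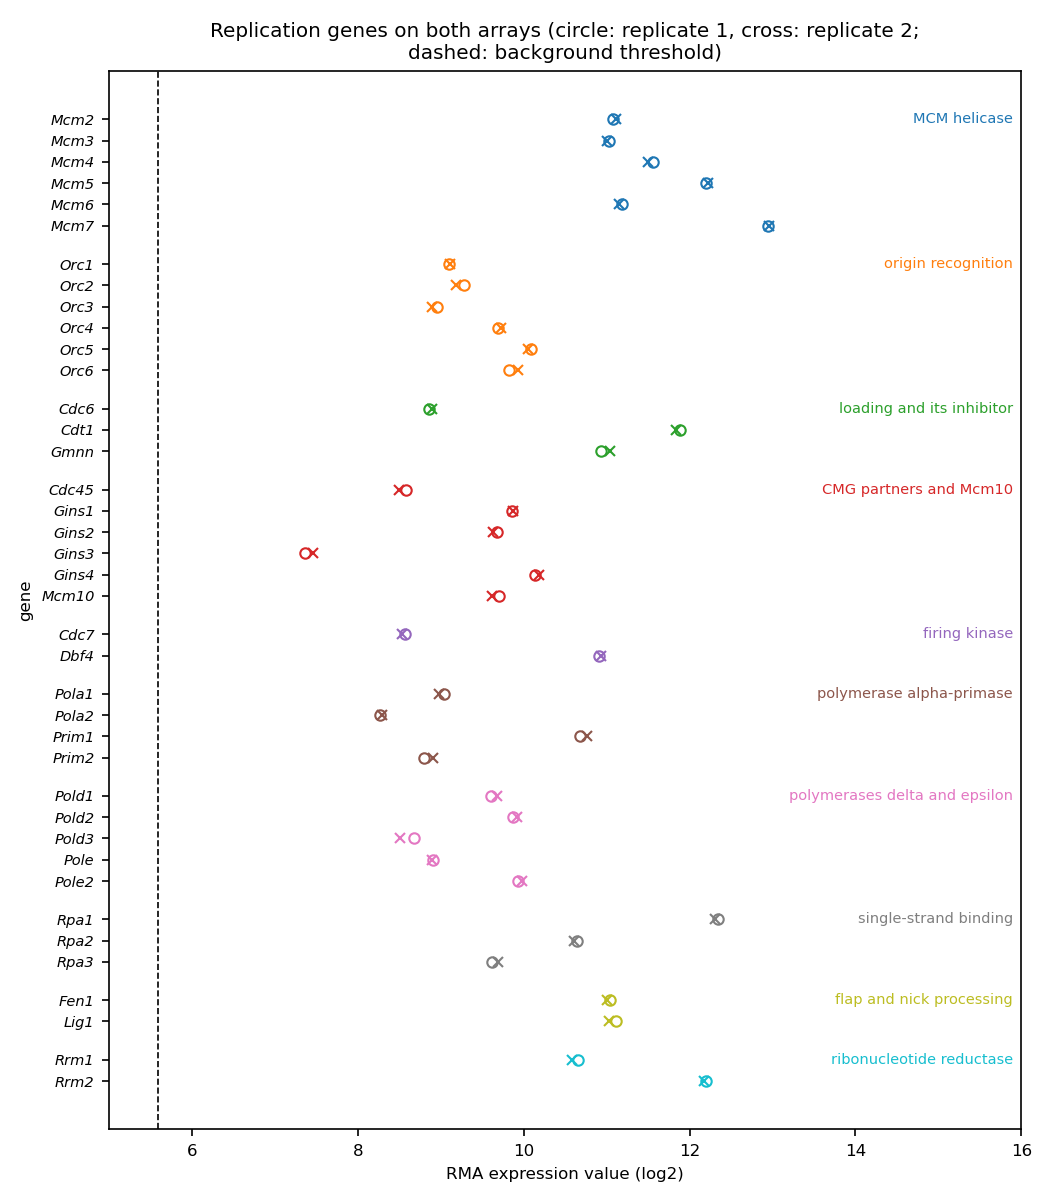
RMA log2 expression value (x axis) of the brightest probe set of each of the 39 replication genes (y axis, grouped and coloured by role), with replicate 1 as a circle and replicate 2 as a cross; the dashed line is the background threshold of 5.59. Every pair lies to the right of the line, and most circles and crosses overlap.

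The calls above rest on the brightest probe set, and the other probe sets did not always match. Of the 87 probe sets, 75 were above a threshold made from olfactory receptor probe sets (5.54), where 62.7% of all 34958 were. The other 12 belonged to 11 of the 30 genes with several probe sets. Every member was above background on its brightest probe set, so each of these 11 also had a probe set above that threshold. The share of all genes with probe sets on both sides was not computed. In Cdt1 the means were 11.86, 10.47 and 3.50, in Rrm1 they were 10.62, 9.51 and 3.32, and in Mcm6 they were 11.16, 10.80 and 3.69. Such gaps within a gene are wider than any difference between the arrays.

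Dbf4 had means of 10.92 and 3.72, Gins1 of 9.87 and 4.05, Pole2 of 9.95 and 4.63, and Pola1 of 9.01 and 4.23. Pola2 was the member with most of its probe sets low, at 8.28, 4.76 and 4.72. Orc4 graded from 9.71 through 7.67 and 6.45 to 4.82, and Orc3 from 8.92 through 6.43 to 5.55. The lowest Orc3 probe set and the Mcm10 probe set at 5.64 exceeded the threshold for the mean but not that of each array, while another Mcm10 probe set at 5.60 passed and the brightest was at 9.66. Of the 12 low probe sets 10 were of the plain type and 2 were marked as shared between transcripts. Where on the transcript these probe sets lie was not analysed here, and the cause of the gaps was not tested.

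**Figure D4:**
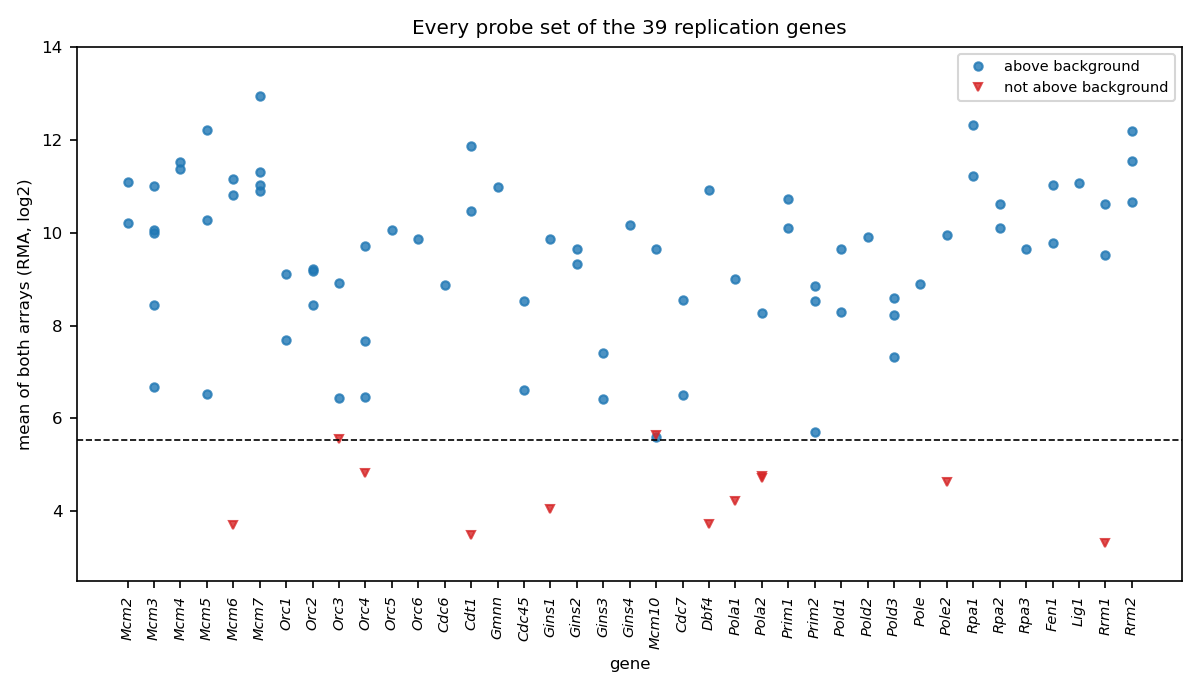
Mean of both arrays (RMA log2, y axis) for all 87 probe sets of the 39 replication genes (x axis), as blue circles where above background and red triangles where not; the dashed line is the probe set threshold for the mean, 5.54, and a probe set had to pass on each array too. In 11 genes a triangle stands beneath at least 1 circle, and in Mcm10 and Orc3 it lies just above the line.

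Between the replicates the members differed little. The difference (replicate 2 minus replicate 1) had a median of -0.011 and an SD of 0.067 log2 units over the 39 genes, and ran from -0.18 to 0.12. The same quantities over 12769 genes, those past the threshold on either array, were 0.015 and 0.114. Over the 8459 genes whose means lay in the members' range, which leaves out the dimmest genes, the median was 0.019 and the SD 0.078. In number, 19 members were higher on replicate 2 and 20 on replicate 1, which is 48.7% higher on replicate 2, where 60.5% of the genes in the same range were.

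No member differed by 1.2-fold or more, a step of 0.26 log2 units, which 3.79% of the 12769 genes did, and no p-value is given, since both arrays are of 1 group. The 12769 include genes dimmer than any member, and the share within the members' range was not computed. Against the SD of all genes within 0.5 log2 units of its own mean, 11 members (28.2%) differed by more than that SD, where 30.8% of the 12769 genes did. By more than 2 times it, 1 member differed, Pold3 (2.56%), where 4.9% of all genes did, so neither share is above that of all genes. Among the 87 probe sets 4 (4.6%) passed 1.2-fold, where 8.0% of all 34958 did. These sets differ in level too, since 75 of the 87 but only 62.7% of the 34958 were above background. The 4 were 1 each in Mcm3, Mcm10, Pola1 and Pola2, all higher on replicate 2 and with means of 6.67 or lower. All but that of Mcm3 were not above background. Of the 25 members with several probe sets above background, the differences had a single sign in 12 and both signs in 13. The same split over all genes was not computed, so these counts say nothing particular about the members.

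**Figure D5:**
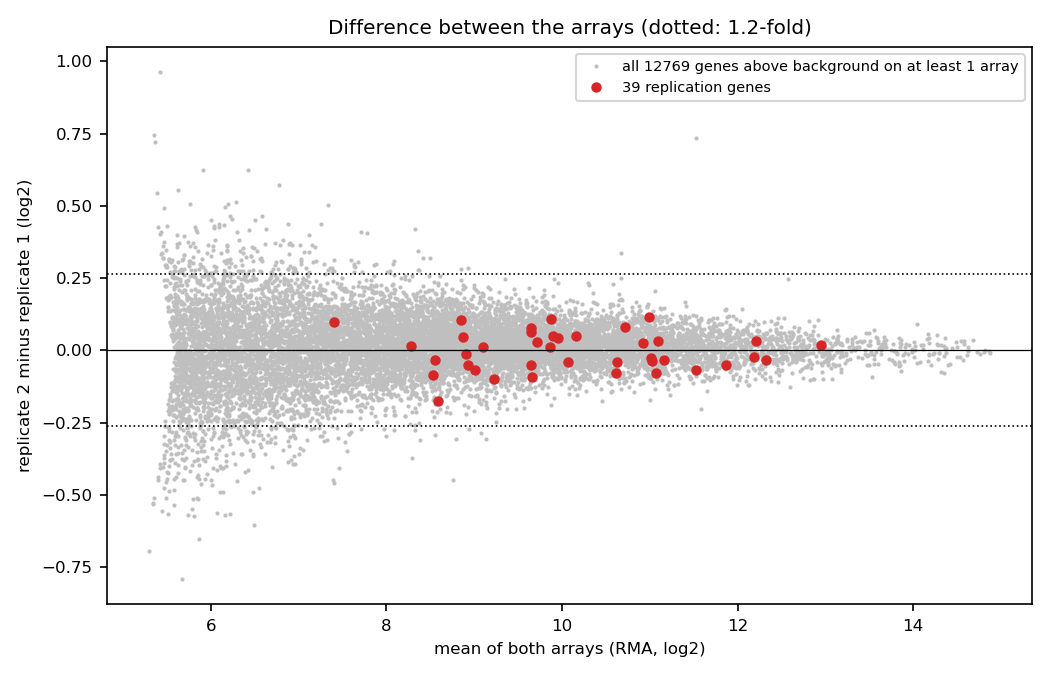
Difference between the arrays (replicate 2 minus replicate 1, log2) against the mean of both, for 12769 genes above background on at least 1 array (grey) and the 39 replication genes (red); dotted lines mark 1.2-fold. All 39 red points lie between the dotted lines, from -0.18 to 0.12, within the grey cloud at their level.

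The wider pathway was counted from 7 lists of other genes: fork and origin firing factors, related MCM genes, E2F and pocket proteins, cyclins and kinases of S phase, nucleotide supply, turnover of Cdt1 and geminin, and the ATR checkpoint. Of 79 listed genes 76 had a probe set of their own and 74 were above background, read against the same 68.4% of all genes. The fork list gave 24 of 24, the related MCM genes 4 of 4, the E2F and pocket proteins 13 of 13, the turnover list 10 of 10 and the ATR list 8 of 8, while 7 of 8 cyclin and kinase genes and 8 of 9 nucleotide supply genes were above it. The exceptions were Ccna1, a cyclin gene known mainly from the male germ line, at 3.91 and 4.08, and Tyms, which encodes thymidylate synthase, at 5.55 and 5.47 on the brightest of its 4 probe sets. Tyms lay 0.079 below the threshold. List medians of the difference between arrays ran from -0.036 for the E2F and pocket proteins to 0.039 for the related MCM genes, and no gene of these lists differed by more than 0.23.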

How the data were processed

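The deposited table held log2 values for 45101 probe sets on each of 2 arrays, made by the authors with RMA, per the submitters' processing notes; neither its version nor the set of arrays normalized together is given in the sources used here. RMA equalizes the arrays' distributions (medians 6.01 and 6.01), so a shift common to most genes would be hidden, and it gives no detection call. Precision is limited by the number of arrays. Unmapped columns numbered 0.

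Symbols came from the platform annotation: 34958 probe sets had 1 symbol, 932 had several and 9211 had none here. All 39 members matched the reference table by gene identifier, with the same symbol. Every member is named. Thresholds, differences and motif searches were computed with Python 3.11.15, pandas 2.3.3 and numpy 2.4.6. The thresholds and differences were tested on simulated data, and the motif searches were not. The simulated expressed genes all lay well above the threshold, with the same noise at every level. Weak expression near the threshold was therefore not covered. The members and lists were chosen with earlier results of these data known. With 1 group no test was run. Alternatives were other percentiles and reference genes, other probe set rules, loess (statsmodels 0.14.6), centring, no filter and each array alone.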

Additional observations from a re-analysis of the deposited data

How the results depend on the processing

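For the 7 main results 38 alternative values were computed, and 35 stayed close to the reported one (counts within 1.5 times, differences within the median SD of a member) and 3 did not. The count of members past 1.2-fold was 0 as reported, 1 when a gene's probe sets were replaced by their median, and 1 with unshared probe sets alone. That gene was Mcm10 in both, whose remaining probe sets are dim: it differed by 0.27 at a mean of 5.70 and by 0.38 at 5.64. The count of promoters with an E2F-type match fell from 14 to 7 on the strand of the gene only, where 1.38% of all genes held one, and stayed at 14 with the wider letters TTTNNCGC, which 5.93% of all genes held. Members above background were 38 of 39 under the median rule (Pola2 was below) and 34 of the 34 that have an unshared probe set. Mcm7, Cdc6, Cdc7, Pole and Fen1 have none. In both settings the threshold for the mean was lower, 5.28 in place of 5.59. With unshared probe sets Mcm10 passed on its probe set at 5.64, which was not above background in the main count of probe sets. The other settings gave 39, each array alone included. Probe sets above background ranged from 73 to 77 of 87 over the other thresholds and single arrays. The median difference ran from -0.028 with loess to 0.016 under the median rule, so it has no stable sign. The SD of the difference over the members, 0.067 as reported, was 0.078 under the median rule and 0.096 with unshared probe sets. The SD over all genes under those 2 rules was not computed, so the members' small spread depends on the probe set rule. Of the other replication genes 71 (median rule) to 75 (90th percentile) of 76 were above background, or 69 of 71 with unshared probe sets. No paired analysis was possible because there is only 1 group. Near the threshold, signal over background does not tell weak expression from none.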

Other observations

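Many of the replication genes start close to another gene that runs the opposite way. Of the 32 members with a promoter window, 12 (37.5%) had an annotated start on the opposite strand within 1000 bases upstream, against 12.3% of all 27025 genes with a window and 19.0% of the genes above background. The pairs were Orc1 with Prpf38a, Orc2 with Gm15834, Orc3 with Rars2, Orc4 with Mbd5, Orc5 with 6030443J06Rik, Mcm7 with Ap4m1, Cdc45 with Ufd1, Dbf4 with Slc25a40, Rpa1 with Smyd4, Rpa3 with Umad1, Fen1 with Tmem258 and Lig1 with Zswim9. The origin recognition genes made up 5 of the 12, and Orc6 was the 1 of their 6 without such a neighbour. The closest starts were those of Orc2 and Gm15834, 6 bases apart. Those of Orc3 and of Rars2, a transfer RNA synthetase gene of mitochondria, were 15 bases apart.

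Of the 12 neighbours 10 had a probe set of their own and 8 were above background, where 68.4% of all genes were. Prpf38a, a splicing factor gene, was at 10.58 and 10.76, Rars2 at 9.63 and 9.62, Ufd1 at 9.57 and 9.53, and Slc25a40 at 8.96 and 8.97. Ap4m1, an adaptor subunit gene beside Mcm7, was at 8.01 and 7.96. The 2 that were not above background were Gm15834, at 5.57 and 5.30, and Zswim9, at 5.07 and 4.88, although their partners Orc2 and Lig1 were. The search was added after the values had been seen, and pairs are a description of the annotation with no test.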
